A study of Mus musculus with 8 samples.

Results

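Peroxiredoxins, thioredoxins and the thioredoxin inhibitor Txnip were examined in mouse heart. The 10 genes were fixed by name: Prdx1 to Prdx6, Txn1, Txn2, the mitochondrial thioredoxin reductase gene Txnrd2, and Txnip. All 10 were found among the 55487 genes of the count table and all 10 had enough reads to be tested, along with 13638 other genes. There were 4 libraries from db/db mice given DIZE and 4 from db/db mice given vehicle. db/db mice carry a mutated leptin receptor and become obese and diabetic, and both groups carried it, so no non-diabetic heart was part of the comparison. DIZE is taken here to be diminazene aceturate, an antiprotozoal drug, and the series' title names reduction of oxidative stress as its subject. The sources used here give no dose, length of treatment, age or sex. Nor do they say that the libraries stand for different animals. The p-values therefore cover the spread between these libraries, which may be technical.

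Peroxiredoxins break down hydrogen peroxide with a reactive cysteine, which thioredoxin then reduces again. Thioredoxin is in turn recharged by thioredoxin reductase at the cost of NADPH. The cytosol and the mitochondria each have their own thioredoxin, reductase and peroxiredoxins. Txnip binds reduced thioredoxin and blocks it, and its transcript is known to rise with glucose through the MondoA and ChREBP transcription factors. In the diabetic heart Txnip is therefore often followed as a marker of glucose and redox stress.

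Total counts ranged from 8042396 to 10161623 in DIZE libraries and from 7447664 to 10056759 in vehicle libraries. All 6 cardiomyocyte markers were found in every library, with a summed level of 37805 to 41439 CPM (a gene's counts per 1e+06 counts of its library) in DIZE and 28094 to 40564 CPM in vehicle. By these marker sums, vehicle 1 stood apart in several lists, and vehicle 2 in that of hepatocytes. Vehicle 1 had the lowest cardiomyocyte sum, the highest fibroblast sum (2262 CPM against 1022 to 1457 CPM in the other libraries) and the highest macrophage sum (503 CPM against 276 to 351 CPM). Its sum of 4 atrial markers was 900.4 CPM, against 12.8 to 132 CPM in DIZE libraries and 35.3 to 318 CPM in the other vehicle libraries. All 4 atrial markers lay lower in DIZE, with a median log2 fold change of -2.76, and 0 passed the test. Vehicle 2 held 1524 CPM of hepatocyte markers, against 0.373 to 2.60 CPM in DIZE libraries and 0.537 to 7.36 CPM in the other vehicle libraries. In heart tissue, fewer cells of a type and less RNA per cell cannot be told apart.

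None of the 10 genes passed the test between DIZE and vehicle hearts. Each interval below gives the sizes of difference that the fit of this test allows. It does not cover the shifts from other ways of processing. The test was edgeR's quasi-likelihood test, with p-values adjusted over all genes by the Benjamini-Hochberg method at a threshold of 0.05. It called 0 of the 10, against 5 of the 13648 genes tested (0.0366%, with 0.0220% higher and 0.0147% lower). DESeq2 also called 0 of the 10, against 606 of the 13648, and limma-voom 0 of the 10, against 4 of the 13648. At an unadjusted p under 0.05 there were 0 of the 10, against 19.4% of all genes tested (9.11% higher and 10.3% lower). The 4 DIZE libraries lay wholly beyond the 4 vehicle libraries for 0 of the 10, against 12.4% of all genes tested (7.17% with DIZE higher and 5.26% with DIZE lower). Of the 10, 6 lay higher and 4 lower in DIZE, with a median log2 fold change of 0.03 beside -0.01 over all genes. CPM, other than the marker sums, were computed on each library's total over the tested genes, scaled by edgeR's TMM (trimmed mean of M-values) factors. The marker sums used whole library totals without these factors. Log2 fold changes are DIZE over vehicle.

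**Figure D1:**
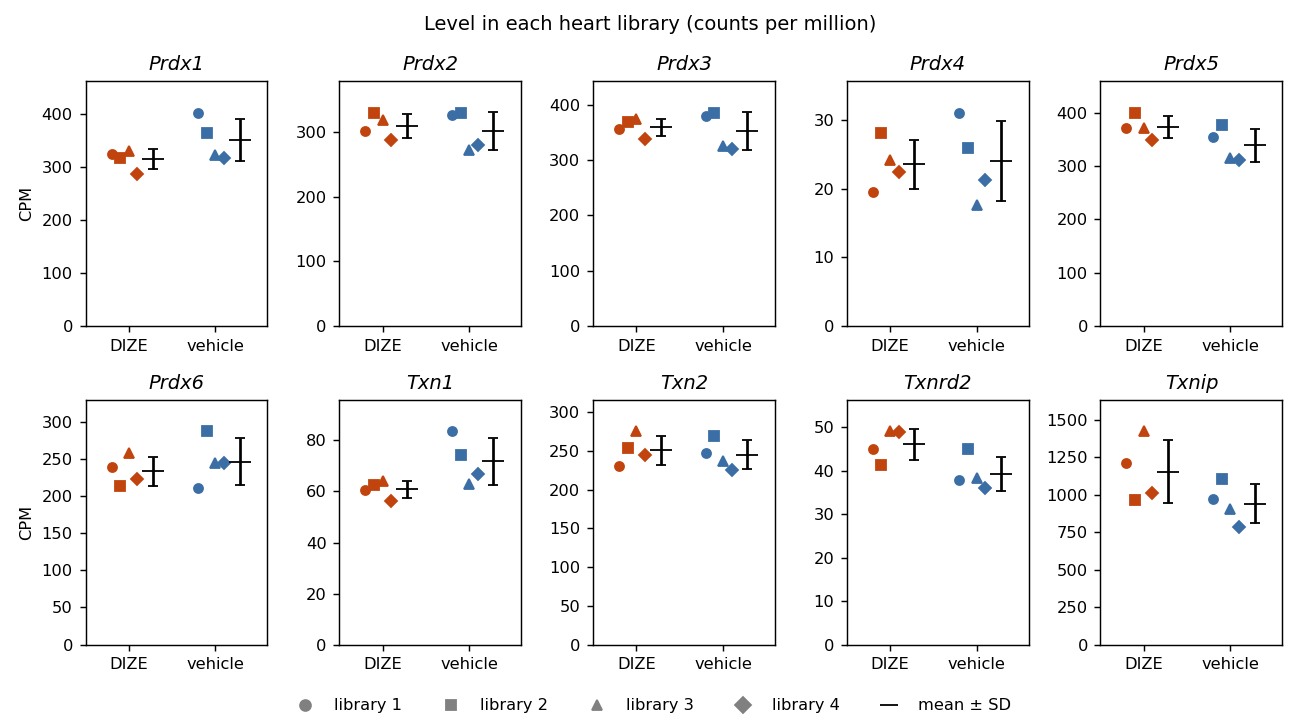
CPM of the 10 genes (vertical axis from 0) in the 4 DIZE and 4 vehicle libraries, 1 panel per gene. Marker shapes give the library number within its group, and black bars the mean ± SD of 4 libraries. The groups overlap in every panel, least in Txn1 and Txnrd2.

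Compared per exon length, Txnip was the most abundant of the 10 in every library. Its level averaged 369 ± 67.0 RPKM (CPM per kilobase of exon) in DIZE and 301 ± 42.7 RPKM in vehicle (SD, n = 4 each), and over the 8 libraries it ranked 116 of 13643 genes. Prdx3 was the second in every library, at 217 to 261 RPKM, and Prdx5 the third, at 146 to 187 RPKM, both encoding mitochondrial peroxiredoxins. Prdx1 averaged 103 ± 6.33 RPKM in DIZE and 115 ± 13.1 RPKM in vehicle, and Prdx2 101 ± 6.14 RPKM in DIZE and 99.1 ± 9.78 RPKM in vehicle. Prdx1 lay above Prdx2 in all 4 vehicle libraries, and the order of these neighbours differed among DIZE libraries. Txn1, at 53.6 to 79.5 RPKM, likewise lay above Txn2, at 53.7 to 65.4 RPKM, in all 4 vehicle libraries and not in all DIZE libraries. Prdx6 followed at 43.7 to 59.7 RPKM. Prdx4 (8.40 to 14.8 RPKM) and Txnrd2 (8.16 to 11.1 RPKM) came last, in an order that differed between libraries. Several of these genes have an exon union longer than any 1 of their transcripts. With the length of the longest transcript in its place Txnip, Prdx3 and Prdx5 stayed the first 3, Prdx2 (189.7 RPKM over all libraries) came before Prdx1 (145 RPKM), and Txn2 (121 RPKM) and Prdx6 (93.7 RPKM) came before Txn1 (63.2 RPKM).

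**Figure D2:**
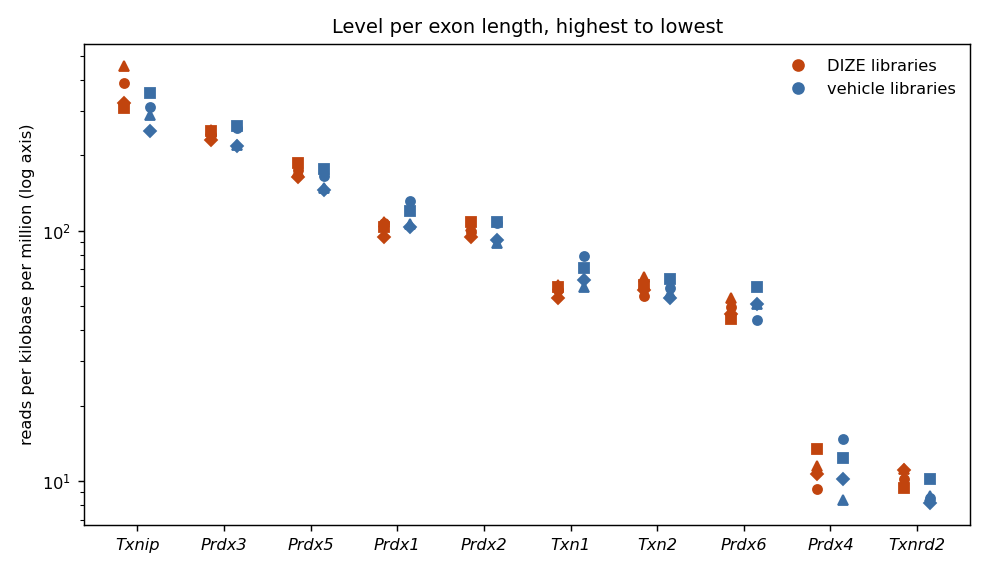
RPKM (log axis) of the 10 genes in order of their mean over the 8 libraries, with DIZE libraries to the left of vehicle libraries at each gene and marker shapes for the library number. Txnip lies above the others in every library, and Prdx4 and Txnrd2 lie near 10.

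Txnip (ENSMUSG00000038393) lies on chromosome 3 from 96557957 to 96561883, on the plus strand of GRCm38 (mm10). The 250 bases before its RefSeq start (GRCm38.p6, chr3:96557707-96557956, plus strand) are shown because glucose is known to act on this gene through sites close to its start. Capitals mark copies of CACGAG, the E-box-like unit of a carbohydrate response element.
Txnip: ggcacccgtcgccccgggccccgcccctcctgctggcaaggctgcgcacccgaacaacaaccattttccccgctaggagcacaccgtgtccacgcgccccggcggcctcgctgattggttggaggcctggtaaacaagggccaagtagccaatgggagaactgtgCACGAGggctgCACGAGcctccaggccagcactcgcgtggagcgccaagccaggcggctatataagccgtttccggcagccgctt
The copies begin 85 and 74 bases before the start and together make the spaced pair CACGAGNNNNNCACGAG. Searched on both strands, CACGAG was found in 5.37% of the same windows of 32851 RefSeq promoters, and the spaced pair, a motif chosen with this sequence in view, in 1 of them, that of Txnip. The window also held GTAAACA, the letters of a forkhead site, 121 bases before the start (3.17% of promoters), and 2 copies of CCAAT (33.8% of promoters hold it). A match describes the letters and does not show binding.

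Txnip had 1212, 961, 1421 and 1014 CPM in DIZE 1 to 4, against 972, 1102, 906 and 782 CPM in vehicle 1 to 4. DIZE 3 was the highest library and vehicle 4 the lowest, and vehicle 2 lay above DIZE 2 and DIZE 4, so the groups overlapped. The means were 1152 ± 209 CPM in DIZE and 941 ± 133 CPM in vehicle (SD, n = 4 each), a log2 fold change of 0.29 ± 0.15 (SE, 95% interval -0.03 to 0.62, edgeR adjusted p = 0.304). That interval reaches from 0.977-fold to 1.54-fold. The value moved between 0.18 without DIZE 3 and 0.38 without vehicle 2. In the libraries whose titles lack the letters db (DIZE 3 and 4, vehicle 3 and 4) Txnip had log2 0.53, and in the others 0.07. The difference between these title forms was 0.46 (edgeR interaction, adjusted p = 0.636), and the labels do not say what the form of a title stands for. Gm15441, an antisense gene that shares 606 exonic bases with Txnip, had 3 to 12 counts per library.

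None of the tested genes in the lists of Txnip regulators, relatives and partners passed the test, beside 0.0366% of all genes tested. Mlxip (MondoA), Mlxipl (ChREBP) and their partner Mlx were all tested, with 1 higher, 2 lower and 0 past the threshold, and log2 fold changes of -0.02 ± 0.17, 0.07 ± 0.29 and -0.18 ± 0.14. Of 4 tested alpha-arrestin relatives 3 lay higher, 1 lay lower and 0 passed. Among them Arrdc4, another known target of MondoA, had 29.7, 34.2, 22.5 and 26.1 CPM in DIZE 1 to 4, against 29.3, 18.5, 23.3 and 21.2 CPM in vehicle 1 to 4 (log2 0.28 ± 0.17, edgeR adjusted p = 0.385). Over the 8 libraries log2 CPM of Arrdc4 and Txnip had a Pearson r of -0.01 and a Spearman rho of 0, given as a description. DIZE 2 was highest for Arrdc4 and lowest of its group for Txnip, and vehicle 2 was lowest for Arrdc4 and highest of its group for Txnip. Among partners and targets, the muscle glucose transporter gene Slc2a4, whose protein Txnip is known to help remove from the cell surface, had 530.2 ± 50.7 CPM in DIZE and 417 ± 117 CPM in vehicle (log2 0.35 ± 0.18, edgeR adjusted p = 0.311). Itch, the ubiquitin ligase gene that marks Txnip for destruction, had 44.4 ± 9.59 CPM in DIZE and 56.4 ± 8.33 CPM in vehicle (log2 -0.35 ± 0.17). Slc2a1, the basal glucose transporter gene, had log2 0.31 ± 0.19, and Rrm2b, a ribonucleotide reductase subunit gene, -0.23 ± 0.14. Of 8 tested members of that list, 3 lay higher, 5 lower and 0 passed. Nlrp3, the inflammasome sensor gene linked to Txnip, had 3 to 13 counts per library and was not tested.

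Among 9308 other genes with a mean of at least 10 CPM, those whose log2 CPM was most like that of Txnip over the 8 libraries included Dhrs4 (Pearson r = 0.96), Pth1r (0.95), Mbd3 and Hsd17b11 (0.94 each). By Spearman's rho, Dhrs4 and Pth1r were again among the first 5. Txnrd2 was the most like of the other 9 genes studied here (r = 0.82, in position 65). For that pair r was 0.61 without DIZE 3 and vehicle 4, 0.55 within DIZE and 0.90 within vehicle. With so many genes and 8 libraries that share their depth and composition, these values of r are descriptions only.

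Neither thioredoxin gene passed the test. Txn1 (ENSMUSG00000028367, chromosome 4 from 57943373 to 57956411, minus strand), the cytosolic form, had 60.7, 62.6, 64.0 and 56.4 CPM in DIZE 1 to 4, against 83.5, 74.3, 62.8 and 66.8 CPM in vehicle 1 to 4. All DIZE libraries were within a narrow range and lay below the vehicle libraries, except that DIZE 3 lay above vehicle 3. Its log2 fold change was -0.24 ± 0.12 (95% interval -0.49 to 0.02, edgeR adjusted p = 0.290), or -0.16 without vehicle 1. Txn2 (ENSMUSG00000005354, chromosome 15 from 77915047 to 77929006, minus strand), the mitochondrial form, had 231, 254, 275 and 244 CPM in DIZE, against 248, 269, 238 and 226 CPM in vehicle. Its groups overlapped almost wholly (log2 0.03 ± 0.11, 95% interval -0.20 to 0.27, edgeR adjusted p = 0.886).

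Txnrd2 (ENSMUSG00000075704, chromosome 16 from 18426384 to 18479073, plus strand) encodes the selenoprotein that recharges mitochondrial thioredoxin. It had 44.9, 41.3, 49.0 and 48.9 CPM in DIZE 1 to 4, against 37.8, 44.9, 38.2 and 35.9 CPM in vehicle 1 to 4. DIZE 2 lay below vehicle 2, and every other DIZE library lay above every vehicle library (log2 0.23 ± 0.12, 95% interval -0.02 to 0.49, edgeR adjusted p = 0.292). Txnrd2 had log2 0.40 in the libraries titled without the letters db and 0.07 in the others (edgeR interaction 0.34, adjusted p = 0.629). The cytosolic reductase gene Txnrd1, its testis-enriched relative Txnrd3, and Srxn1, the sulfiredoxin gene that repairs overoxidized peroxiredoxins, all lay higher and 0 of the 3 passed. Txnrd1 had 94.2 ± 19.4 CPM in DIZE and 79.8 ± 8.92 CPM in vehicle (log2 0.24 ± 0.15, edgeR adjusted p = 0.404). Txnrd3 had 32.3 ± 1.89 CPM in DIZE and 26.8 ± 3.00 CPM in vehicle (log2 0.27 ± 0.12, adjusted p = 0.250 by edgeR). Srxn1 had the largest spread of the 3, with 94.0, 57.2, 34.5 and 29.1 CPM in DIZE 1 to 4 and 33.1 to 61.6 CPM in vehicle.

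None of the 6 peroxiredoxin genes passed, with 3 higher and 3 lower in DIZE. Prdx1 (ENSMUSG00000028691, chromosome 4 from 116685544 to 116700822, plus strand) encodes an abundant cytosolic form induced by the oxidant sensor NRF2. It had 325, 316, 329 and 287 CPM in DIZE 1 to 4, against 401, 363, 322 and 316 CPM in vehicle 1 to 4. Vehicle 1 and vehicle 2 lay above all DIZE libraries and the other vehicle libraries among them. Its log2 fold change was -0.16 ± 0.11 (95% interval -0.40 to 0.09, edgeR adjusted p = 0.457), and -0.09 without vehicle 1. Prdx1 and Txn1 followed each other across libraries, with Pearson r = 0.95 and rho = 0.76 over all 8, r = 0.91 within DIZE, r = 0.96 within vehicle, and r = 0.80 without vehicle 1 and DIZE 4. Vehicle 1, the library with the highest fibroblast, macrophage and atrial sums, was the highest for both, and the part of those cells in these values was not tested. The trend on GC content and length described below was also largest in vehicle 1.

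The 250 bases before the RefSeq starts of Prdx1 (GRCm38.p6, chr4:116685349-116685598, plus strand) and Txn1 (GRCm38.p6, chr4:57956412-57956661, minus strand) are shown because these levels followed each other and both genes are known NRF2 targets. Capitals mark TGAGTCA, the letters of an AP-1 site, and TGACNNNGC, the core of an antioxidant response element, on either strand.
Prdx1: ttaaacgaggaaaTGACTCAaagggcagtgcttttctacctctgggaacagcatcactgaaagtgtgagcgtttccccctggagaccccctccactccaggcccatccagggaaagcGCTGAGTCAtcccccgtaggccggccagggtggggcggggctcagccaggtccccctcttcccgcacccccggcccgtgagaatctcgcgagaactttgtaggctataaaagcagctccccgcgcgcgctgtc
Txn1: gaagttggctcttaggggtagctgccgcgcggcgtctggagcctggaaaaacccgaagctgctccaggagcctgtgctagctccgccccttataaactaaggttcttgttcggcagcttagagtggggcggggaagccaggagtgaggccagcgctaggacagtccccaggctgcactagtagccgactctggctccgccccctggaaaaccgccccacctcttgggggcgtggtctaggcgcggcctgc
Prdx1 held 2 copies of TGAGTCA, of which the one 131 bases before the start overlaps its single TGACNNNGC match. Txn1 held neither motif in this window. Among all promoters of the same length, 4.46% held TGAGTCA and 10.2% held TGACNNNGC. Of the 10 genes 9, all but Prdx6, had an entry in the promoter table, and Prdx1 was the only one of these 9 with TGACNNNGC.

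Prdx2 (ENSMUSG00000005161, chromosome 8 from 84969587 to 84974834, plus strand), a cytosolic form that red blood cells hold in large amounts, had 302, 329.7, 319 and 287 CPM in DIZE 1 to 4, against 326, 329, 272 and 281 CPM in vehicle 1 to 4. The groups covered nearly the same range (log2 0.03 ± 0.11, 95% interval -0.20 to 0.27, edgeR adjusted p = 0.893). The summed level of 7 erythroid markers was 8.46 to 79.2 CPM in DIZE against 103 to 219 CPM in vehicle. DIZE 2 had the lowest erythroid sum, and DIZE 2 and vehicle 2 had the highest Prdx2, at nearly the same level. The part of blood cells in the Prdx2 values was not tested. The exons of Prdx2 share 173 bases with Junb and 177 with Rnaseh2a on the other strand.

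Prdx3 (ENSMUSG00000024997, chromosome 19 from 60864051 to 60874556, minus strand), found only in mitochondria, had 356, 368, 374 and 339 CPM in DIZE 1 to 4, against 379, 385, 325 and 320.3 CPM in vehicle 1 to 4. The vehicle libraries lay on both sides of the DIZE libraries (log2 0.03 ± 0.11, 95% interval -0.20 to 0.26, edgeR adjusted p = 0.914). Prdx2 and Prdx3 followed each other closely, with r = 0.96 and rho = 0.83 over the 8 libraries, and r = 0.94 without vehicle 3 and vehicle 4. These values are descriptions.

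Prdx5 (ENSMUSG00000024953, chromosome 19 from 6906697 to 6910106, minus strand), whose protein is found in mitochondria, peroxisomes and cytosol, had 372, 400.0, 371 and 349 CPM in DIZE 1 to 4, against 354, 377, 315 and 311 CPM in vehicle 1 to 4. DIZE 2 was the highest library and vehicle 4 the lowest, and the groups overlapped (log2 0.14 ± 0.11, 95% interval -0.10 to 0.37, edgeR adjusted p = 0.497). Its exons share 409 bases with Trmt112 on the other strand, which averaged 12.9 CPM of the library total.

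Prdx4 (ENSMUSG00000025289, chromosome X from 155323918 to 155340754, minus strand), the form of the secretory pathway, was the least abundant and least even peroxiredoxin. It had 19.5, 28.2, 24.3 and 22.5 CPM in DIZE 1 to 4, against 31.1, 26.0, 17.7 and 21.4 CPM in vehicle 1 to 4 (log2 -0.03 ± 0.18, 95% interval -0.43 to 0.37, edgeR adjusted p = 0.946). Vehicle 1 was the highest library and vehicle 3 the lowest, so the vehicle libraries enclosed all DIZE libraries. Prdx4 had log2 0.25 in the libraries titled without the letters db and -0.26 in the others (edgeR interaction 0.52, adjusted p = 0.620), the largest such difference of the 10 genes. Prdx6 (ENSMUSG00000026701, chromosome 1 from 161240112 to 161251219, minus strand), which is recharged with glutathione and also has phospholipase activity, had 239, 213, 257 and 223 CPM in DIZE 1 to 4. It had 210.2, 287, 244 and 244 CPM in vehicle 1 to 4 (log2 -0.08 ± 0.12, 95% interval -0.34 to 0.18, edgeR adjusted p = 0.750). Vehicle 2, the library with hepatocyte transcripts, was the highest of all, and without it the log2 fold change was 0.0033. Vehicle 2 was also the highest vehicle library for Prdx2, Prdx3, Prdx5, Txn2, Txnrd2 and Txnip, and the part of liver RNA in these levels was not tested.

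**Figure D3:**
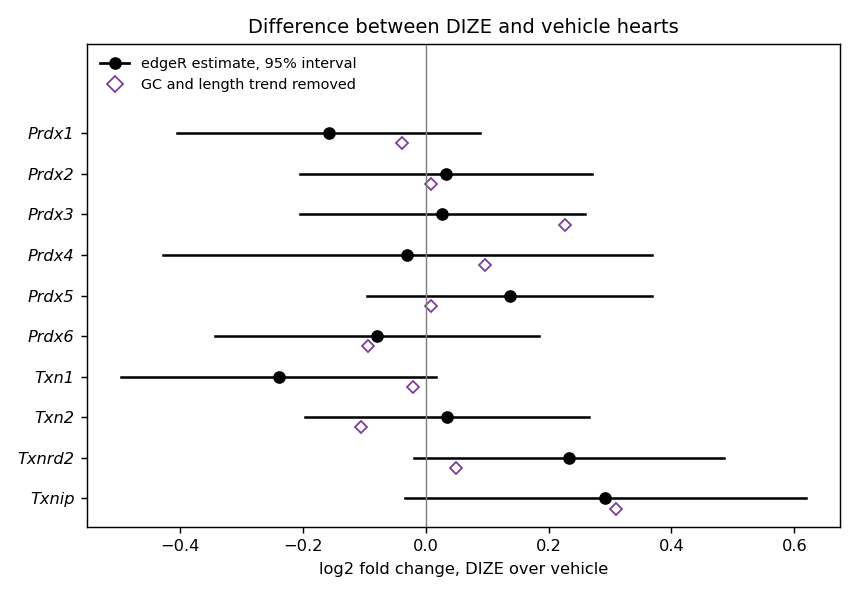
Log2 fold change of DIZE over vehicle for the 10 genes. Black points are edgeR estimates with 95% intervals, and open diamonds the estimates after GC content and length trends were taken out of every library. The diamonds carry no interval. All intervals of the black points include 0. That of Prdx4 is the widest, followed by that of Txnip, which reaches 0.62.

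The estimates also varied with the base composition of the genes. GC content and log2 fold change had a Spearman's rho of 0.39 over 13638 genes, a description across genes and not across replicates. The 10 genes run from 42.3% GC for Prdx1 to 56.4% for Prdx5. After a smooth trend on GC content and length had been taken out of every library, Txn1 had log2 -0.02, Prdx1 -0.04, Prdx5 0.01 and Txnrd2 0.05, all closer to 0. Prdx3 had 0.23 ± 0.10 (SE, edgeR unadjusted p = 0.0443, adjusted p = 0.261). Txnip had 0.31 ± 0.14 (SE, edgeR unadjusted p = 0.0495, adjusted p = 0.271). The trend was largest in vehicle 1, where the fitted value was 0.42 for Txn1 and Prdx3, 0.33 for Prdx1 and -0.27 for Txnrd2 on the log2 scale. In that library Txn1 lay 0.34 and Prdx1 0.28 above their means over all libraries before the trend was removed. Whether the trend arose in the tissue or in the libraries was not tested.

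Ratios of 2 genes within a library do not depend on how libraries are scaled. Txnip counts were 20.0, 15.3, 22.2 and 18.0 times those of Txn1 in DIZE 1 to 4, against 11.6, 14.8, 14.4 and 11.7 times in vehicle 1 to 4. The groups did not overlap, and the mean log2 ratio differed by 0.52, or by 0.43 to 0.61 with any 1 library left out. The Prdx1 to Prdx2 ratio was 1.08, 0.958, 1.03 and 0.998 in DIZE, against 1.23, 1.10, 1.18 and 1.12 in vehicle. The Prdx3 to Prdx5 ratio was 0.955, 0.920, 1.01 and 0.970 in DIZE, against 1.07, 1.02, 1.03 and 1.03 in vehicle. Both lay lower in every DIZE library than in any vehicle library. The genes of these ratios were chosen with earlier results of these data known. Of all 45 pairs of the 10 genes, 14 (31.1%) had ratios that did not overlap, and 11 of these 14 involve Txn1 or Prdx1. Over all pairs of the 9309 genes with a mean of at least 10 CPM the share was 14.4%. With the trend on GC content and length removed it was 6 of 45 (13.3%), near the 12.9% of all pairs. Then the Txnip to Txn1 ratio was 14.1 to 21.1 in DIZE and 11.7 to 15.6 in vehicle, so the groups overlapped, with a mean log2 difference of 0.32. The Prdx1 to Prdx2 ratio then overlapped too, at 0.926 to 1.14 in DIZE and 0.999 to 1.18 in vehicle. The Prdx3 to Prdx5 ratio turned round, at 0.949 to 1.16 in DIZE and 0.720 to 1.02 in vehicle. Ratios of Prdx1 to Prdx3, Prdx1 to Txnip and Prdx3 to Txn1 did not overlap, whether the trend was removed or not. The share of all pairs of genes that did so both ways was not computed, so these pairs cannot be set against it. Pairs that share a gene are not independent, and these ratios carry no test.

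**Figure D4:**
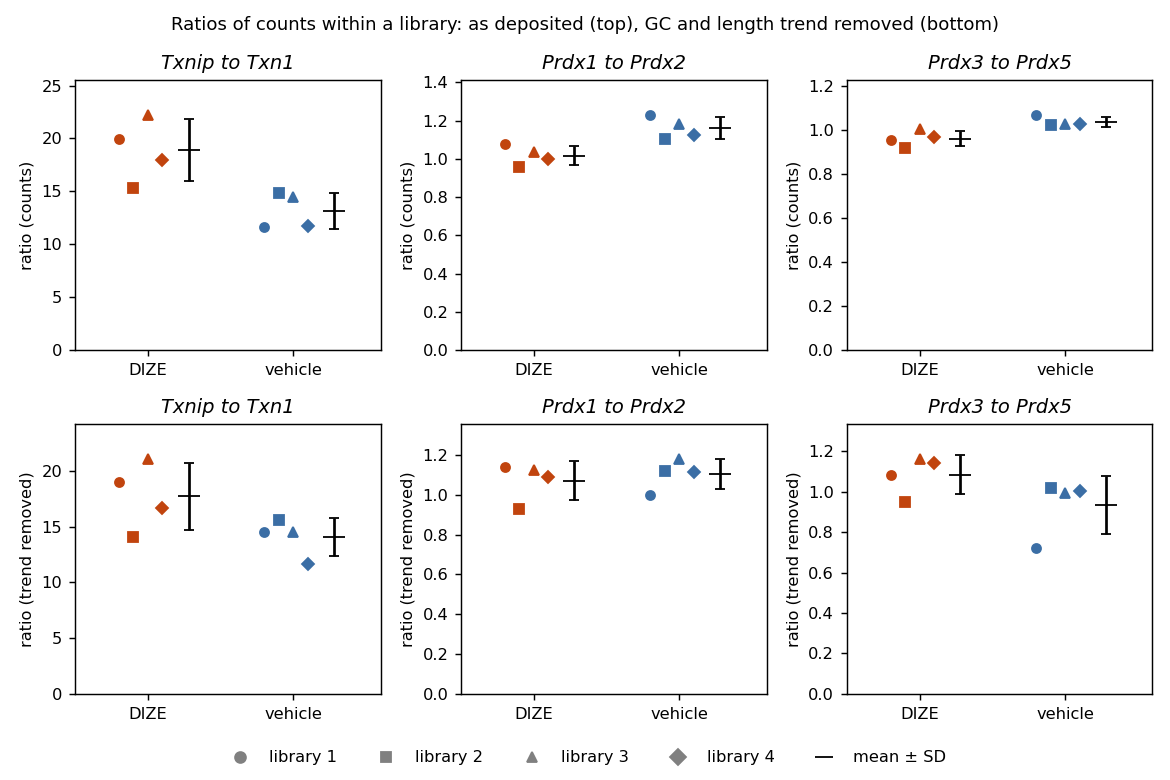
Ratios of counts of 2 genes within each library (axes from 0), with DIZE left of vehicle, marker shapes for library number and black bars for the mean ± SD of 4 libraries. In the upper row the groups do not overlap, and in the lower row, after correction for GC content and gene length, they do.

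The spread between libraries had its own pattern. Within DIZE, library 4 was the lowest or second lowest for all of the 10 genes but Txnrd2. Within vehicle, libraries 3 and 4 were the 2 lowest for all but Prdx6 and Txnrd2. Txnip had the widest range of the 10 over the 8 libraries, with 0.46 relative to its mean on the log2 scale in DIZE 3 and -0.40 in vehicle 4, and Prdx4 the next widest. Prdx3, Prdx2 and Txn2 had the narrowest ranges, and the farthest library among them was vehicle 3 for Prdx2, at -0.16.

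**Figure D5:**
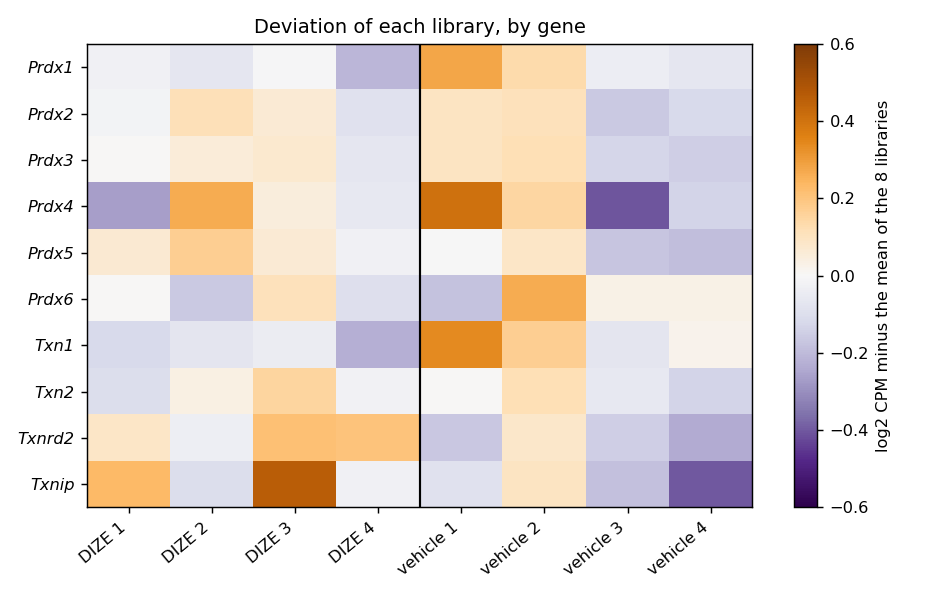
Difference of each library's log2 CPM from the gene's mean over the 8 libraries, with genes down the page and DIZE libraries left of vehicle libraries. Prdx1 and Txn1 share their high values in vehicle 1, Txnip is highest in DIZE 3 and lowest in vehicle 4, and Prdx4 is lowest in vehicle 3.

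The wider thioredoxin and glutathione system was read the same way. Of 52 other genes in 9 lists fixed by name, 50 were tested, 27 lay higher and 23 lower in DIZE, and 0 passed, with a median log2 fold change of 0.04. At an unadjusted p under 0.05 there were 4 of the 50, a smaller share than the 19.4% of all genes, namely Txndc17, Sesn3, Msrb3 and Txnrd3. Of 13 thioredoxin-like genes 5 lay higher and 8 lower. Txndc17, a small cytosolic relative of thioredoxin, had 41.2 ± 2.44 CPM in DIZE and 51.3 ± 7.91 CPM in vehicle (log2 -0.32 ± 0.13, edgeR adjusted p = 0.208), and Tmx3, a membrane-bound relative in the endoplasmic reticulum, had log2 -0.32 ± 0.16. Of 5 glutaredoxin system genes 3 lay higher, and Gsr, the glutathione reductase gene, was higher in every DIZE library than in any vehicle library, with 35.4 ± 1.12 CPM in DIZE and 31.0 ± 1.54 CPM in vehicle (log2 0.19 ± 0.10, edgeR adjusted p = 0.318). Of 4 methionine sulfoxide reductases 2 lay higher. Msrb3 had 208, 274, 194 and 190.6 CPM in DIZE 1 to 4, against 159, 190.5, 167 and 182 CPM in vehicle 1 to 4, without overlap (log2 0.31 ± 0.13, edgeR adjusted p = 0.235). Of the 50 tested, these 2 had groups that did not overlap, beside the 12.4% of all genes. The sestrins, regulators of the response to oxidants and nutrients, went both ways, with log2 -0.41 ± 0.17 for Sesn3 (edgeR adjusted p = 0.229), 0.43 ± 0.33 for Sesn2 and 0.03 ± 0.11 for Sesn1. Of 7 genes that supply NADPH 5 lay higher, with log2 0.27 ± 0.14 for Pgd, 0.23 ± 0.13 for Me1 and -0.22 ± 0.11 for Idh1.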

How the data were processed

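Gene-level read counts of 8 heart libraries were analysed, 4 from db/db mice given DIZE and 4 given vehicle, grouped by the treatment in the labels and numbered in the order of the samples. Per the labels' protocols, poly(A)-selected RNA was made into stranded libraries and sequenced as read pairs. The submitters' processing notes name the build mm10 and the tools R 4.1, edgeR, HTSeq 0.6.1p1 and STAR 2.7.3. Strand mode, settings and annotation release: not given in the sources used here. Deposited values are raw counts per Ensembl gene, matched to columns by each sample's description, with 0 columns of other samples. Symbols were matched for 55141 of 55487 genes. Positions, exon unions and GC content came from GENCODE M21 (GRCm38, the assembly of mm10), and promoters from RefSeq.

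Differences were tested in edgeR 4.0.16 under R 4.3.3 by its robust quasi-likelihood test, which is two-sided, with TMM factors, no covariate, filterByExpr (minimum count 10, minimum total 15) and Benjamini-Hochberg adjustment over all genes tested, threshold 0.05. CPM and RPKM were computed here. The test was first tried on simulated data. The most alike pair of libraries still differed by a chi-square of 5.06 per degree of freedom, so none was counted as a duplicate. Alternatives were DESeq2 1.42.0, limma-voom (limma 3.58.1), other size factors and filters, blocks, a GC and length correction (splines, mgcv 1.9.3) and left-out libraries. Vehicle 1 and 2 left out together, the ratios under these alternatives and the interaction with title form were added after the data were seen. The genes and lists were chosen with earlier results of these data known. Besides the 10 genes, up to 4 genes per list by smallest unadjusted p and the 5 most like Txnip were to be named, and not all of these are reported here. RPKM use the length of each gene's exon union. Of the 10 genes Prdx4, one of the lowest, had the largest standard error.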

Additional observations from a re-analysis of the deposited data

Results flagged for a closer look

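Of 112 groups of 4 libraries checked for a library far from the others, 6 held one, where chance gives about 1 in 20. None of these was among the 10 genes or their ratios. Tmx3 was at 68.2 CPM in DIZE 2, against 48.1 to 50.0 CPM in the other DIZE libraries. Sesn2 was at 8.79 CPM in DIZE 1, against 6.05 to 6.27 CPM in the others. Arrdc1 had 6.05 CPM in vehicle 1 and 8.21 to 8.45 CPM in vehicle 2 to 4. The MondoA gene Mlxip had 66.2 CPM in vehicle 1 and 109.6 to 114 CPM in vehicle 2 to 4. The summed hepatocyte markers reached 1524 CPM in vehicle 2, with 0.537 to 7.36 CPM in the rest of that group. The summed skeletal muscle markers came to 1044 CPM in vehicle 1, with 1349.5 to 1393 CPM in the rest of that group.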

How the results depend on the processing

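None of the 10 genes passed under any of the 21 alternatives run, and Prdx1, Prdx5, Txn1, Txnrd2 and Txnip kept their sign in all of them but not their size. Over these alternatives the log2 fold change was 0.07 to 0.53 for Txnip, 0.05 to 0.40 for Txnrd2, 0.0081 to 0.25 for Prdx5, -0.25 to -0.021 for Prdx1 and -0.35 to -0.021 for Txn1. The smallest adjusted p was 0.0551, for Txnrd2 in the libraries titled without the letters db. The other 5 had estimates near 0 in the fit reported above, and their sign turned. Over the alternatives they ran from -0.26 to 0.27 for Prdx4, -0.073 to 0.23 for Prdx3 and -0.049 to 0.16 for Prdx2. For Txn2 the range was -0.10 to 0.16, and for Prdx6 -0.15 to 0.0033. With library totals only, the log2 fold change was -0.038 for Prdx2, -0.043 for Prdx3 and -0.032 for Txn2. With the number in the titles as a replicate block, a fit to which DIZE 3 and vehicle 4 add nothing because their numbers are not shared, it was -0.014 for Prdx2, -0.035 for Prdx3, -0.050 for Txn2 and 0.09 for Txnip. In the libraries titled with the letters db it was -0.049 for Prdx2, -0.073 for Prdx3 and -0.088 for Txn2, and in the others 0.25 for Prdx4. With the GC and length trend removed it was 0.097 for Prdx4 and -0.10 for Txn2, and the Prdx3 to Prdx5 log2 ratio difference was 0.23. Without vehicle 1 and vehicle 2 it was 0.27 for Prdx4, -0.021 for Prdx1, -0.09 for Txn1 and 0.45 for Txnip. Leaving out 1 library gave -0.013 to 0.078 for Prdx2, -0.016 to 0.073 for Prdx3, -0.15 to 0.12 for Prdx4, -0.15 to 0.0033 for Prdx6 and -0.011 to 0.083 for Txn2.

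Over all genes the number called was 5, and 0 with library totals only, 606 by DESeq2, 386 without a filter, 1 with the stricter filter, 9 with title form as a block, 0 with the replicate block, 0 and 1349 in the title forms with and without the letters db, and 65 without vehicle 1 and vehicle 2. The edgeR interaction of treatment with title form, which compares these forms directly, called 0 of all genes tested. Leaving out 1 library gave 0 to 240, with 240 without vehicle 2, 9 without vehicle 1, 1 without vehicle 3, and 0 without vehicle 4 or any DIZE library. The cause was not tested. The labels do not say whether title numbers pair the libraries. Same-numbered libraries of the 2 groups deviated together with r of -0.14 to 0.02, and the other pairs with r of -0.21 to 0.14. These values cannot decide it, since the number 4 recurs within each group.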

Other observations

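Nnt, the transhydrogenase gene whose protein makes NADPH for mitochondrial thioredoxin and glutathione, was at 2.69 ± 0.42 CPM in DIZE and 1.91 ± 0.42 CPM in vehicle (SD, n = 4 each, edgeR adjusted p = 0.307). Idh2, another mitochondrial source of NADPH and a gene chosen here after its values were seen, was at 2284 ± 180.3 CPM in DIZE and 2164 ± 228 CPM in vehicle. As background, some laboratory mouse strains carry a loss-of-function deletion in Nnt. The labels name the mice only as db/db, and do not give their genetic background.

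Prdx1 has processed pseudogenes that share its sequence. Of the words of 75 bases in Prdx1 transcripts, 2.19% also occur in Gm21399, which had 21 to 38 counts per library, and 2.13% in Gm7204, which had 6 to 24. Tdpx-ps1 shares 2.76% of the words of Prdx2 and had 5 to 10 counts.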
